A study of Homo sapiens with 21 samples.

Results

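Clustered histone genes are described here across a time course of TGFβ treatment in HMLE cells. The members were the symbols of the older form HIST1H to HIST4H, followed by the histone class, that had at least 1 of 21 normalized read counts above 10. Of 72 such symbols among the 23201 in the table, 30 were members, and 42 stayed under that value in every library. The members comprised 4 genes of the linker histone class H1, 7 of class H2A, 10 of H2B, 6 of H3 and 3 of H4. By cluster, 26 of the 55 HIST1 symbols were members, as were 3 of 13 HIST2 symbols and 1 of 3 HIST3 symbols. The only HIST4 symbol was not. The members were thus chosen by their highest value, so levels above 10 are a description and were not tested. Just inside the rule were HIST1H2AM with a highest value of 10.2, HIST1H4I with 10.2 and HIST1H1D with 10.5. Just outside it were HIST2H2AC with 9.89, HIST1H4C with 8.90 and HIST1H2AH with 8.90.

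The study sequenced whole-transcriptome RNA of HMLE, an immortalized line of human mammary epithelial cells, to follow epithelial to mesenchymal transition (EMT). TGFβ is a cytokine that induces EMT in these cells. The 7 groups were untreated cells (d0) and cells on days 1, 4, 7, 10, 15 and 20 of TGFβ (d1 to d20), with 3 libraries each. All groups came from the same line, and since no untreated cells were sampled on the later days, TGFβ and time in culture cannot be told apart.

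Most histone protein is made in S phase from genes that lie in a few clusters and exist in many near-identical copies. Their mRNAs usually end not in a poly(A) tail but just after a short stem-loop, which is bound by the protein SLBP, and they are made and degraded with DNA replication. Some clustered genes also give longer, polyadenylated mRNAs by running past the stem-loop, and these are known from differentiated and non-dividing cells. Histones H2A, H2B, H3 and H4 form the nucleosome core, and H1 binds the linker DNA between nucleosomes.

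The stem-loop is shown because it separates the processed from the extended form of a histone mRNA. In the transcripts of GENCODE release 29 (GRCh38), 19 of the 30 members had a 16-base histone stem-loop, searched on the sense strand, and 0.0473% of 57043 other symbols had one of the same letters. The stem-loops below stand in capitals with 5 bases on each side, 5′ to 3′.
HIST1H2AC: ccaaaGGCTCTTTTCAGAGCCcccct
HIST2H2BE: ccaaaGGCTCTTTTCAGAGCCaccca
HIST3H2A: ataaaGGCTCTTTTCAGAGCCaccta
HIST1H2AG: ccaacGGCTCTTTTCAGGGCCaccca
HIST1H2BD: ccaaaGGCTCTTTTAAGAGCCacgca
HIST1H2BC: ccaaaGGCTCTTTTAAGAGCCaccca
HIST1H3E: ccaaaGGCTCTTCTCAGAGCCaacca
HIST1H4H: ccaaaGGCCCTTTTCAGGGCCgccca
The first 3 carry the form shared by 10 members, and HIST1H2BD and HIST1H2BC carry a form shared by 3. HIST1H2AG shares its form with 1 other member, and so does HIST1H4H, while HIST1H3E has a form found in no other member. In 16 members an annotated transcript ran at least 100 bases past the stem-loop, 1128 bases in HIST1H2AC, 1729 in HIST2H2BE and 1862 in HIST1H3E. A transcript that ended at a poly(A) signal (AATAAA or ATTAAA in its last 40 bases) was annotated for 16 of the 30 members and 9 of the 11 tested ones, for 8 of the 42 other clustered symbols, and for 45.3% of the other symbols of the annotation. The median level, as a mean read count over the 21 libraries, was 11.3 in those 16 members and 5.04 in the other 14. The other 14 include HIST1H2BK and HIST1H1C, with means of 843 and 333. Read counts were not divided by transcript length, so these medians do not compare RNA amounts. HIST1H2BK and HIST1H1C, the members with the most reads, had 1 annotated transcript each, of 381 and 642 bases, and neither contained a stem-loop. The H2B genes HIST1H2BM and HIST1H2BO were also annotated with 381 bases and no stem-loop, and such short transcripts may stop before it. A stem-loop missing from the annotation is thus not read as missing from the gene, in these or in the other members without one.

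The promoters of the 5 members with the most reads are shown next, with that of HIST1H2AG, which was called lower than d0 on 2 days. RefSeq (GRCh38.p14) gave a window from 250 bases before to 50 after the start for 29 of the 30 members, with HIST2H2BC not matched. For the 4 members with more than 1 listed start (HIST1H2BK, HIST1H2BD, HIST1H3E and HIST1H3D), the start nearest to that of the gene in GENCODE was used. The windows are chr6:27146806-27147105 (minus strand) for HIST1H2BK, chr6:26056421-26056720 (minus strand) for HIST1H1C, chr6:26123922-26124221 (plus strand) for HIST1H2AC, chr6:26157872-26158171 (plus strand) for HIST1H2BD, chr1:149886633-149886932 (minus strand) for HIST2H2BE and chr6:27132793-27133092 (plus strand) for HIST1H2AG. Capitals mark matches to the searched letters on either strand, and adjoining or overlapping matches run together.
HIST1H2BK: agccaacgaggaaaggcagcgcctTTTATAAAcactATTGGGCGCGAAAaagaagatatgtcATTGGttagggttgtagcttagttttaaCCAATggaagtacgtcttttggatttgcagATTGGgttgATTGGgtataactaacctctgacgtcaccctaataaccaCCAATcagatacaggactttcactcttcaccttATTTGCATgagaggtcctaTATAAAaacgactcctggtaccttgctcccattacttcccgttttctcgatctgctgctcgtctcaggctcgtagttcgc
HIST1H1C: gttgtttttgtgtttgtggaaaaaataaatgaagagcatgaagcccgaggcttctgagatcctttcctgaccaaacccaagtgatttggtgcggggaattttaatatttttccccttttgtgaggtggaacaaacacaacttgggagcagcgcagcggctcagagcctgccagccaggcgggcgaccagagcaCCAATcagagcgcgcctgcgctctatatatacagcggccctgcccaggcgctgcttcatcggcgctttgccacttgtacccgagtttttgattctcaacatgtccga
HIST1H2AC: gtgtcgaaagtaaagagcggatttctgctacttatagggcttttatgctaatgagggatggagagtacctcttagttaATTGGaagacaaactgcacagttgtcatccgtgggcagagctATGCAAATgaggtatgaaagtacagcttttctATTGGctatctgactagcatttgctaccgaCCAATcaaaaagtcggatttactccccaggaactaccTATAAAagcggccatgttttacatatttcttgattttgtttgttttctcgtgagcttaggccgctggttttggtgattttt
HIST1H2BD: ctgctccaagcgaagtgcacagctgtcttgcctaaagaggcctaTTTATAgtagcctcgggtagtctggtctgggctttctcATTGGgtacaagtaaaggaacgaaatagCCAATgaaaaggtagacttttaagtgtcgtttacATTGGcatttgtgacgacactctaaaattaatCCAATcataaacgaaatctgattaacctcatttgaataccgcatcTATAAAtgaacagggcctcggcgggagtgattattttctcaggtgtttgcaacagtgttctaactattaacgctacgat
HIST2H2BE: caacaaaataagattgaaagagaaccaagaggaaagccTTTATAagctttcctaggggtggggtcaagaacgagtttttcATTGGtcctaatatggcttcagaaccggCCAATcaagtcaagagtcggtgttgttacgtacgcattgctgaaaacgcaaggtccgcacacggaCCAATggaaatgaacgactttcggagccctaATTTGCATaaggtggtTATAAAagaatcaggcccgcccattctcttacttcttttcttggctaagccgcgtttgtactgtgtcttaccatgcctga
HIST1H2AG: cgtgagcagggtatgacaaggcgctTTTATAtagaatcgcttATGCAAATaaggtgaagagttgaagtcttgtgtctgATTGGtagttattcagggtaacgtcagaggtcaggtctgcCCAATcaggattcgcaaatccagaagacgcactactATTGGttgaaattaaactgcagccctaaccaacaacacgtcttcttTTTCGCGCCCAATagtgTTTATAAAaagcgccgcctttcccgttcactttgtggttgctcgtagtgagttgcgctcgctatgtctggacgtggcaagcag
The octamer ATTTGCAT was found in 11 of the 29 promoters, 4 of the 7 H2A and 7 of the 9 H2B promoters, and in 0 of the 4 H1, 6 H3 and 3 H4 promoters. Among all 35116 promoters it was in 1.77%. CCAAT was in 27 of 29 promoters against 34.6% of all, TATAAA in 18 against 11.5%, and TTTCGCGC, letters of an E2F site, in 7 against 0.515%. TTTGGCGC and the SMAD letters GTCTAGAC were in 0 of 29, against 0.652% and 0.202% of all. Neighbouring H2A and H2B genes that start head to head share much of these windows, so a match can be counted for both. The starts of HIST1H2AC and HIST1H2BC were 246 bases apart, those of HIST2H2BE and HIST2H2AC 236 bases, and those of HIST1H2AG and HIST1H2BJ 248 bases.

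A normalized read count here is the number of reads of a gene divided by 1 size factor per library. Totals were 18847917 to 22667754 reads per library, and the 30 members took only 51.6 ppm of them at d10 and 149 ppm at d15. Genes with a mean of at least 10 over all libraries, 13343 in all and 11 of them members, were tested with limma on log2(value + 1), and a gene was called at a Benjamini-Hochberg adjusted p under 0.05. The other 19 members, with few reads, were not tested. Reads were not divided by transcript length, so levels of different genes are read counts and not RNA amounts, and near-identical copies may share reads. A count of 0 allows up to 3 reads, for counting error only, and 9 of the 72 symbols were at 0 in every library. Among these 9 were the paired copies HIST2H2AA3 and HIST2H2AA4, HIST2H3A and HIST2H3C, and HIST2H4A and HIST2H4B. Whether reads of such copies were left uncounted was not tested, so a 0 was not read as a silent gene. The third d7 library stood apart from its 2 partners, with root mean square differences of 0.457 and 0.472 on the log2 scale against 0.214 to 0.243 in the other 19 pairs of libraries of the same timepoint. Basal epithelial markers (KRT5, KRT14, KRT17, TP63, CDH1, EPCAM, ITGA6 and LAMB3) were present in every library, and PTPRC, CD3E and CDH5, markers of leukocytes and endothelium, had at most 1 read. Of the remaining 3, CD14 had up to 59 reads, PECAM1 up to 51 and VWF up to 13. The 6 markers that should be absent summed to 91.7 to 104 normalized reads at d0 and 18.9 to 44.2 on treated days, and CD14 and PECAM1, the 2 tested, were lower on all 6 treated days. Their part in the results was not tested. Rescaling libraries to equal totals put the all-gene median log2 fold change against d0 at -0.14 to -0.20, in place of values of at most 0.03 in size, so small changes against d0 depended on the scale.

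Histone reads were few, unevenly spread over the copies, and highest at d15, the day on which replication genes were lowest. The summed normalized read count of the 30 members was 1314, 1169 and 1354 (d0), 2461, 2251 and 2321 (d4), 1178, 1136 and 1026 (d10), 3153, 3002 and 3049 (d15) and 1324, 1325 and 1259 (d20). The 3 libraries of d15 lay above all others, and those of d10 below d0 except for 1 that lay within its range. Group means of the sum were 1279 ± 97.5 (SD, n = 3) for d0, 1254 ± 59.2 for d1, 2344 ± 107 for d4, 2255 ± 675 for d7, 1113 ± 78.8 for d10, 3068 ± 77.4 for d15 and 1303 ± 37.6 for d20. At d7 the libraries gave 2689, 2599 and 1478, so the third library, the one that stood apart, was close to d0 and the others to d4. Over the same libraries MCM2 to MCM7, the subunits of the replicative helicase, summed to 11686, 12432 and 16404. The sum of the 8 basal markers was 354697 to 378793 at d0, 405045 to 419579 at d4, 406030 to 769216 at d7, 275298 to 282321 at d10 and 546849 to 566516 at d15. Like the histone sum it lay above d0 at d4, d7 and d15, but its highest library was at d7. Of the 8 markers, 4 were called higher and 3 lower at d4, 5 and 1 at d7, and 5 and 3 at d15. The shares of all genes were 36.9% and 35.3%, 34.6% and 32.6%, and 39.2% and 37.3%. At d4 the markers thus moved both ways. LAMB3 went from 8835, 8517 and 8817 (d0) to 118152, 124741 and 116829 (d4). KRT5 went from 215354, 225595 and 232097 (d0) to 132324, 129346 and 126682 (d4). The part of these markers in the results was not tested.

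The sum was mostly that of HIST1H2BK, HIST1H1C, HIST1H2AC, HIST1H2BD and HIST2H2BE, which together held 74.1% to 93.0% of the members' normalized reads in a library. HIST1H2BK alone held 38.7% to 65.0%. These 5 genes summed to 999.7 ± 14.1 (SD, n = 3) at d0 and 2836 ± 64.5 at d15, a ratio of 2.84. The other 25 members had a mean of 279 ± 85.1 at d0, and lower means on each treated day, of 98.5 ± 1.82 at d10 and 232 ± 19.4 at d15. The 19 members too low for the test gave 198, 90.8 and 216 (d0), 46.8, 36.0 and 44.0 (d10), 106, 101 and 92.2 (d15) and 86.9, 68.4 and 61.7 (d20). Untreated libraries differed among themselves, the second being low, and 2 of the 3 lay above every treated library. The 42 symbols under the rule summed to 76.5, 24.6 and 95.0 (d0), with the same library low, and to 27.5, 12.6 and 29.03 (d15). A member needed only 1 library above 10, so the order of days in the sum of the lowly read members is a description. Of the 11 tested members, 5 had their highest mean at d15, 3 at d4 and 3 at d0, and 7 had their lowest at d10.

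**Figure D1:**
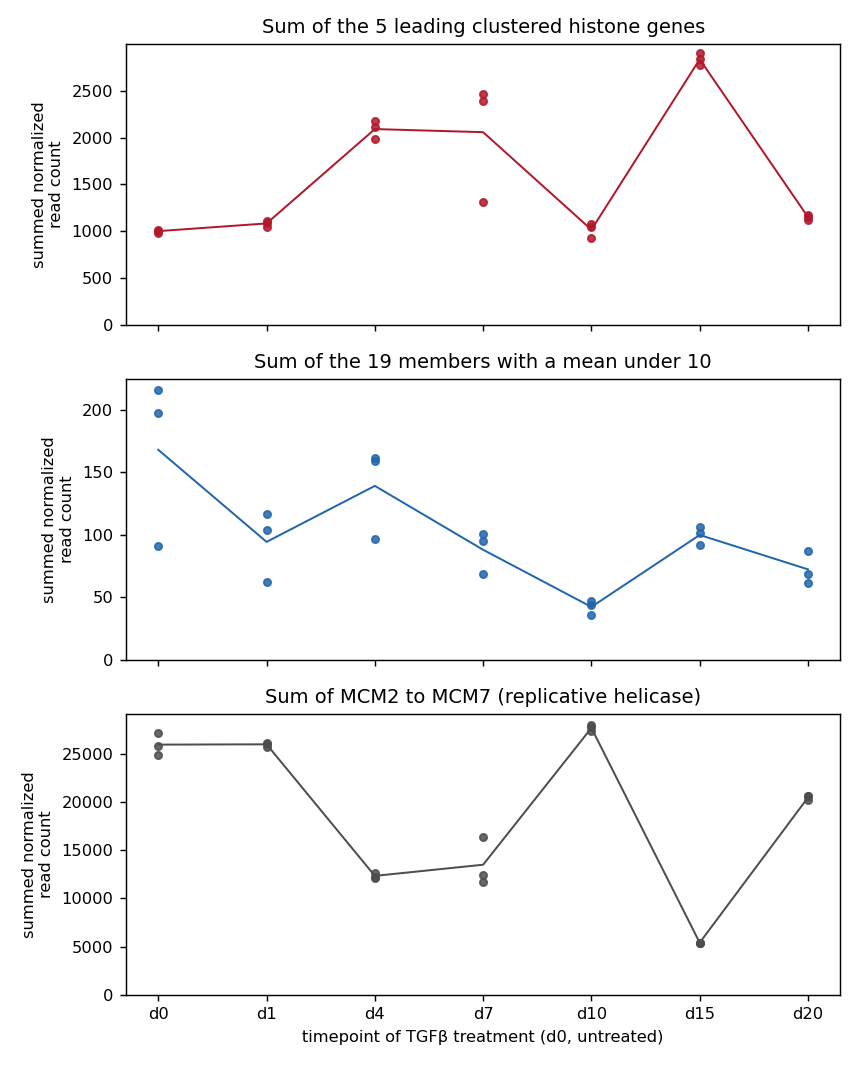
Summed normalized read counts (vertical axes, each from 0) by timepoint for the 5 leading clustered histone genes, the 19 members with a mean under 10, and MCM2 to MCM7. Points are libraries and lines join the means of 3, and the leading genes are highest at d15 (mean 2836) where MCM2 to MCM7 are lowest (mean 5409.5).

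Of the 4 H1 members 1 had reads enough for the test. HIST1H1C, which encodes linker histone H1.2, had 221, 169 and 209.8 normalized reads at d0, 196, 186 and 171 (d1), 418, 372 and 343 (d4), 502, 470.2 and 267 (d7), 168, 161 and 165 (d10), 725, 689 and 709.6 (d15) and 282, 308 and 262 (d20). Libraries of d4, d7 and d15 lay above every untreated one, with d15 highest, and those of d10 lay just below them. The log2 fold change against d0 was 0.92 (standard error 0.16, adjusted p = 1.96e-05) at d4 and 1.83 (standard error 0.16, adjusted p = 6.38e-10) at d15 (limma, Benjamini-Hochberg). From d15 to d20 the change was -1.32 (adjusted p = 1.43e-07) in limma's test. The higher level called at d20, with a change of 0.51 (adjusted p = 0.00687) by limma, was not called without the second d0 library and with libraries rescaled to equal totals. HIST1H1E, HIST1H1D and HIST1H1B, 3 further linker histones, summed to 38.3, 5.94 and 47.5 (d0) and 7.14, 6.32 and 6.21 (d15). HIST1H1E, which encodes H1.4, had 16.02, 3.39 and 24.7 (d0), 5.97, 2.92 and 1.96 (d10) and 4.08, 2.71 and 4.14 (d15). HIST1H1B, which encodes H1.5, had 14.2, 1.70 and 12.9 (d0) and 1.02, 0.9 and 0 (d15). The second d0 library was close to those of d15 in both genes, and the other 2 d0 libraries lay above all of d15.

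In class H2A, HIST1H2AC rose above d0 and the other tested genes were not called higher than d0 on any day. HIST1H2AC, which encodes a core histone H2A, had 73.9, 72.1 and 81.1 normalized reads at d0, 57.5, 60.5 and 55.6 (d1), 259, 222 and 238 (d4), 377, 359.7 and 118 (d7), 53.7, 70.0 and 59.6 (d10), 345, 327 and 324 (d15) and 74.2, 70.5 and 77.4 (d20). Every library of d4, d7 and d15 lay above every library of the other days. Its log2 fold change was 1.65 (standard error 0.26, adjusted p = 7.39e-06) at d4, 1.73 (standard error 0.26, adjusted p = 5.22e-06) at d7 and 2.12 (standard error 0.26, adjusted p = 1.79e-07) at d15 (limma, Benjamini-Hochberg), and without the third d7 library the value at d7 was 2.27. It was -0.31 (adjusted p = 0.295) at d10 and -0.031 (adjusted p = 0.925) at d20, neither called by limma.

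HIST1H2AG and HIST3H2A, which also encode H2A, were lower at d10 and d20. HIST1H2AG had 23.1, 11.03 and 20.8 (d0), 4.98, 5.83 and 5.87 (d10), 23.5, 13.6 and 10.4 (d15) and 11.7, 7.37 and 4.90 (d20). HIST3H2A, of the small cluster on chromosome 1, had 11.6, 22.9 and 15.8 (d0), 3.98, 4.86 and 2.93 (d10), 14.3, 12.7 and 9.32 (d15) and 2.12, 10.5 and 0.98 (d20). In both genes all 3 libraries of d10 lay under the untreated ones, while d15 overlapped them. At d10 the log2 fold change was -1.50 (standard error 0.36, adjusted p = 0.00106) for HIST1H2AG and -1.82 (standard error 0.49, adjusted p = 0.0027) for HIST3H2A (limma, Benjamini-Hochberg). At d20 limma gave -1.11 (adjusted p = 0.0115) and -2.05 (adjusted p = 0.00113), and the call of HIST1H2AG was lost without the first d0 or the third d20 library. From d10 to d15 both rose, by 1.28 and 1.41. The H2A members not tested were HIST1H2AE, HIST1H2AK, HIST1H2AI and HIST1H2AM, with means of 12.6, 9.54, 10.2 and 9.06 at d0 and of 6.05, 4.03, 4.93 and 1.92 at d15. Without HIST1H2AC the class summed to 76.5 ± 10.4 (SD, n = 3) at d0 and 44.8 ± 12.5 at d15.

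Class H2B had the most reads and the most varied members. HIST1H2BK, an H2B gene, had 512, 561 and 536 normalized reads at d0, 691, 751 and 703 (d1), 952, 927 and 1009.5 (d4), 1144, 1144 and 753 (d7), 766, 722 and 634 (d10), 1330.2, 1262 and 1292 (d15) and 669.9, 679 and 675 (d20). Every treated library lay above every untreated one, and those of d15 above all others. Against d0 the log2 fold change was 0.84 (standard error 0.11, adjusted p = 3.38e-07) at d4, 0.89 (standard error 0.11, adjusted p = 2.06e-07) at d7 and 1.27 (standard error 0.11, adjusted p = 4.23e-10) at d15 (limma, Benjamini-Hochberg). The smaller values of 0.41 (adjusted p = 0.00194) at d1, 0.40 (adjusted p = 0.0023) at d10 and 0.33 (adjusted p = 0.00947) at d20 were called by limma too, but not with libraries rescaled to equal totals, where they were 0.22, 0.17 and 0.13. HIST1H2BK was the only member called higher at d1 and at d10.

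HIST1H2BD, another H2B gene, had the largest change of the tested members in both directions over the 8 comparisons. It had 64.1, 51.7 and 42.5 (d0), 261, 207 and 231 (d4), 279, 251 and 81.9 (d7), 37.8, 45.7 and 33.2 (d10), 324, 301 and 315 (d15) and 60.4, 57.9 and 56.8 (d20). The groups d4, d7 and d15 did not overlap with d0, d10 or d20. Group means were 52.8 ± 10.8 (SD, n = 3) for d0, 38.9 ± 6.28 for d10 and 313 ± 11.7 for d15. The log2 fold change against d0 was 2.14 (standard error 0.30, adjusted p = 1.83e-06) at d4 and 2.57 (standard error 0.30, adjusted p = 1.03e-07) at d15 (limma, Benjamini-Hochberg). At d7 it was 1.76 (adjusted p = 2.69e-05), and 2.32 without the third d7 library. Between d10 and d15 it rose by 2.99 (standard error 0.30, adjusted p = 9.06e-09).

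HIST2H2BE, an H2B gene of the HIST2 cluster, was higher than d0 on some days and lower on others. It had 141, 131 and 135 (d0), 71.1, 62.6 and 75.4 (d1), 285, 260.0 and 288 (d4), 160.4, 169 and 95.9 (d7), 51.8, 39.8 and 36.2 (d10), 176, 193 and 195 (d15) and 66.8, 61.0 and 49.9 (d20). Libraries of d1, d10 and d20 lay below d0, those of d4 and d15 above it, and those of d7 on both sides, with the third library the lowest. The log2 fold change was -0.95 (standard error 0.17, adjusted p = 5.12e-05) at d1, 1.03 (standard error 0.17, adjusted p = 1.18e-05) at d4, -1.66 (standard error 0.17, adjusted p = 1.73e-08) at d10 and -1.19 (standard error 0.17, adjusted p = 2.67e-06) at d20 (limma, Benjamini-Hochberg). At d15 it was 0.47 (standard error 0.17, adjusted p = 0.0149), and with libraries rescaled to equal totals it was 0.31 and was not called. From d10 to d15 HIST2H2BE rose by 2.13 (standard error 0.17, adjusted p = 1.66e-10).

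The remaining tested H2B genes had at most 43.1 normalized reads in a library. HIST1H2BC had 19.6, 11.03 and 32.6 (d0), 43.1, 28.2 and 29.4 (d4), 8.96, 7.77 and 11.7 (d10) and 27.5, 28.9 and 36.3 (d15). Its untreated libraries ran from 11.03 to 32.6, and those of d4 and d15 overlapped them. The change at d4, 0.74 (adjusted p = 0.0483) by limma, was not called under 10 of the alternatives, among them both other scalings, edgeR and DESeq2, and leaving out any of 5 of the 6 libraries. At d10 it was -0.97 (adjusted p = 0.0132), not called without the third d0 or the second d10 library. HIST1H2BJ, another H2B gene, had 9.79, 10.2 and 17.8 (d0), 24.2, 26.3 and 18.6 (d4) and 19.4, 20.8 and 19.7 (d15), and those of d4 and d15 lay above d0 without overlap. Its log2 fold changes were 0.86 (standard error 0.25, adjusted p = 0.00464) and 0.67 (adjusted p = 0.0201) by limma. The call of HIST1H2BJ at d15 was lost without the first or the second d0 library, without the second d15 library, with either other scaling and by DESeq2.

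HIST2H2BC, which RefSeq lists as the transcribed pseudogene H2BC20P, fell on 5 of the 6 treated days. It had 26.7, 27.1 and 37.6 (d0), 15.8, 11.7 and 16.6 (d4), 12.7, 12.5 and 19.6 (d7), 18.9, 18.5 and 16.6 (d10), 20.4, 15.4 and 12.4 (d15) and 26.5, 23.1 and 31.3 (d20). All libraries of d1, d4, d7, d10 and d15 lay below d0, and d20 overlapped it. The log2 fold change was -1.0 (standard error 0.23, adjusted p = 0.000585) at d4 and -0.89 (standard error 0.23, adjusted p = 0.00149) at d15 (limma, Benjamini-Hochberg). It was the only member called lower at d4, d7 and d15, and the only one called higher from d15 to d20, by 0.73 (standard error 0.23, adjusted p = 0.00731). Without the third d0 library its calls at d1 and d10 were lost.

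Of the H2B members that were not tested, HIST1H2BG had 17.8, 7.63 and 10.9 (d0), 22.1, 16.6 and 17.6 (d4) and 4.08, 10.8 and 3.11 (d15). HIST1H2BN had 3.56, 3.39 and 6.93 (d0), 2.99, 1.94 and 1.96 (d10) and 24.5, 14.5 and 16.6 (d15), and every d15 library lay above every other library. HIST1H2BH ran from a mean of 17.4 ± 2.99 (SD, n = 3) at d0 to 8.28 ± 1.69 at d15, with all d0 libraries above all d15 libraries. HIST2H2BF had a mean of 3.71 ± 2.49 at d0, 9.69 ± 0.884 at d4 and 3.94 ± 1.03 at d15.

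**Figure D2:**
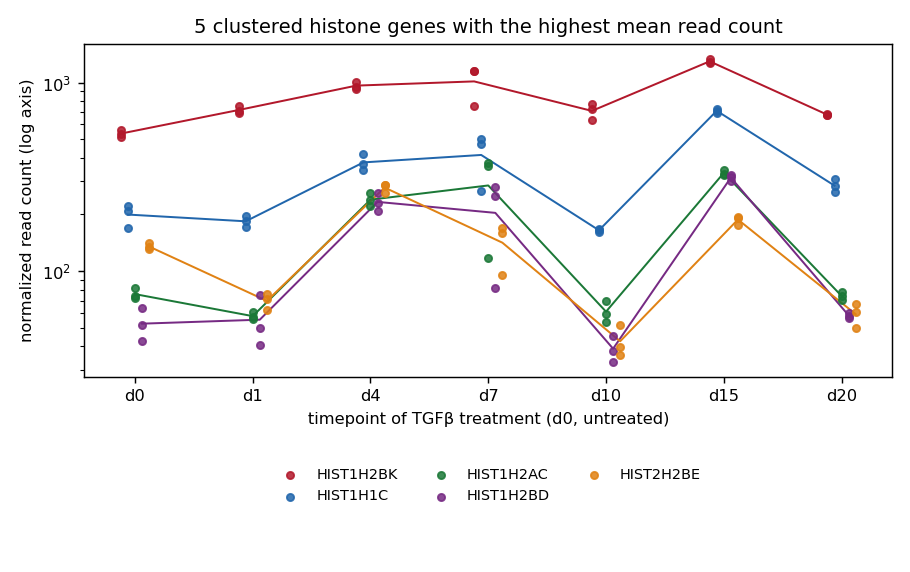
Normalized read counts of HIST1H2BK, HIST1H1C, HIST1H2AC, HIST1H2BD and HIST2H2BE on a log axis by timepoint, with points for libraries and lines through the means of 3. HIST1H1C, HIST1H2AC and HIST1H2BD are highest at d15 (means of 708, 332 and 313), HIST2H2BE at d4 (278), and the third d7 library is the lowest point at d7 for each gene.

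Of the 6 H3 members 1 had reads enough for the test. HIST1H3E, one of the genes for histone H3.1, had 14.2, 11.9 and 9.89 normalized reads at d0, 16.8, 17.5 and 22.5 (d4), 46.4, 36.5 and 17.7 (d7), 1.99, 11.7 and 5.87 (d10), 40.8, 37.1 and 33.1 (d15) and 8.48, 10.5 and 14.7 (d20). All libraries of d4, d7 and d15 lay above the untreated ones, and 1 of d10 lay within their range. Its log2 fold change was 1.32 (standard error 0.42, adjusted p = 0.00912) at d7 and 1.56 (standard error 0.42, adjusted p = 0.00224) at d15 (limma, Benjamini-Hochberg), the former not called without the first d7 library. At d10 it was -1.01 (adjusted p = 0.0393), and that call was lost when any of 4 of the 6 libraries was left out and by edgeR and DESeq2. The 5 other H3 members (HIST1H3H, HIST1H3D, HIST1H3G, HIST1H3B and HIST1H3F) summed to 43.6, 18.7 and 59.4 (d0), 9.97, 6.80 and 9.78 (d10) and 18.4, 23.5 and 23.8 (d15). HIST1H3H, the highest of them at d0, had 13.2 ± 5.20 (SD, n = 3) at d0 and 9.62 ± 3.36 at d15, and HIST1H3D went from 7.12, 0.85 and 2.97 (d0) to 13.7, 16.6 and 9.79 (d4), without overlap and not tested. HIST1H3G had 8.01 ± 3.34 at d0 and 3.30 ± 0.745 at d15.

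No gene of H4, the partner of H3 in the nucleosome core, reached the mean of 10. The 3 members HIST1H4H, HIST1H4E and HIST1H4I summed to 25.8, 8.48 and 18.8 (d0), 1.00, 9.71 and 11.7 (d10) and 18.4, 17.2 and 17.6 (d15). Groups d0 and d15 overlapped. HIST1H4H had 6.78 ± 3.67 (SD, n = 3) at d0 and 10.2 ± 4.20 at d15, and HIST1H4E 7.98 ± 5.88 and 2.27 ± 0.378.

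Set side by side, the class sums at d15 and d0 were 715 and 230.3 for H1, 377 and 152 for H2A, and 1899.7 and 826 for H2B. Those of H3 were 58.9 and 52.5, and those of H4 17.7 on both days. Without the leading gene of each class they were 6.56 and 30.6 for H1, 44.8 and 76.5 for H2A, 605 and 290.0 for H2B, 21.9 and 40.5 for H3, and 7.53 and 10.9 for H4. Leaving out 1 gene thus put the mean sum at d15 below that at d0 in 4 classes, and not in H2B, where HIST1H2BD and HIST2H2BE remained. The genes left in the 4 classes were mostly too low for the test and needed only 1 library above 10, so this order is a description. The second d0 library then had 5.94 in H1, against 6.21 to 7.14 at d15, and 18.7 in H3, against 18.4 to 23.8. In H2A the d0 libraries (at least 64.5) stayed above those of d15 (at most 57.1), and in H4 they overlapped.

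Head-to-head genes, which start from one shared window, often had their highest means on different days. The table held both genes of 8 H2A and H2B pairs with at least 1 member and starts within 250 bases. The 3 pairs described first were chosen after their values were seen. HIST2H2BE was highest at d4, with 285, 260.0 and 288, while its neighbour HIST2H2AC, an H2A gene just under the rule, had 4.21, 1.95 and 0.98. HIST2H2AC was highest at d0, with 8.90, 5.09 and 9.89, and lowest at d15, with 0, 0.9 and 0. HIST1H2BJ had its highest mean at d4, 23.0 ± 3.97 (SD, n = 3), and its neighbour HIST1H2AG at d0, 18.3 ± 6.42. HIST1H2BN had its highest mean at d15, 18.5 ± 5.28, and HIST1H2AK at d0, 9.54 ± 3.71. In these 3 pairs the H2A gene was highest in untreated cells and the H2B gene on a treated day. The pair of HIST1H2AC and HIST1H2BC did not follow that order, with the H2A gene highest at d15 (332 ± 11.1) and the H2B gene at d4 (33.6 ± 8.28). HIST1H2AE was highest at d0 (12.6 ± 6.53) and its neighbour HIST1H2BG at d4 (18.8 ± 2.94). Of the other 3 pairs, HIST3H2A and HIST3H2BB had their highest means at d0 (16.8) and d4 (4.98), HIST1H2AI and HIST1H2BL at d0 (10.2) and d1 (2.37), and HIST1H2AM and HIST1H2BO both at d0 (9.06 and 5.28). The difference between the genes of a pair was not tested.

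**Figure D3:**
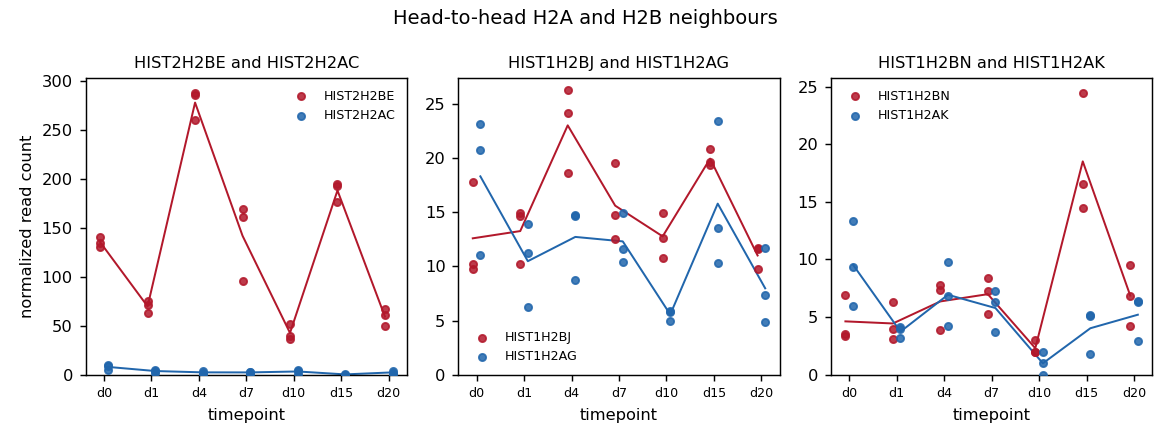
Normalized read counts of 3 head-to-head pairs of an H2B and an H2A gene by timepoint, with points for libraries and lines through the means of 3. These H2B genes have their highest means at d4 or d15 (278 for HIST2H2BE at d4) and the H2A genes at d0 (7.96 for HIST2H2AC).

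Counted by day, few tested members were called at d1, most were higher at d4 and d15, and 6 of the 11 were lower at d10. At d1, 1 of the 11 was called higher (HIST1H2BK) and 2 lower (HIST2H2BE and HIST2H2BC), against 31.3% and 28.5% of all 13343 genes, and the median log2 fold change of the 11 was -0.38. At d4, 7 were higher and 1 lower, with a median of 0.84 and a background of 36.9% higher and 35.3% lower. HIST1H2BD, HIST1H2AC and HIST2H2BE rose most. At d7, 5 were higher and 1 lower, with a median of 0.32, against 34.6% and 32.6%. The same counts of 5 and 1 held without the third d7 library.

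At d10, 1 tested member was higher and 6 were lower (HIST1H2AG, HIST1H2BC, HIST1H3E, HIST2H2BC, HIST2H2BE and HIST3H2A), with a median of -0.71, against 37.0% higher and 30.7% lower among all genes. The 6 became 4 to 5 whichever library was left out (4 without the third d0 library), and 3 with quantile normalization. At d15, 7 were higher and 1 lower, with a median of 0.67, against 39.2% and 37.3%. With libraries rescaled to equal totals, 5 were higher and 1 lower at d15, where 30.3% of all genes were then higher and 47.2% lower. At d20, 2 were higher and 3 lower, with a median of -0.11, against 32.5% and 30.2%. With the rescaling, none was higher at d1, d10 and d20, where 18.3%, 21.5% and 19.9% of all genes were. The comparisons against d0 share the untreated libraries.

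Between consecutive late days nearly all tested members were called. From d10 to d15, 10 of the 11 tested members rose and 0 fell, with a median of 1.61, while 39.3% of all genes were higher and 40.5% lower. HIST1H2BJ had the smallest increase, 0.62, and was not called when any of 5 of the 6 libraries was left out. HIST2H2BC was the exception, at -0.18 (adjusted p = 0.483) in limma's test. From d15 to d20, 10 fell and HIST2H2BC rose, with a median of -1.32, while 37.7% of all genes were higher and 36.3% lower. Without the third d20 library, 7 fell, the other 3 being HIST1H2BC, HIST1H2AG and HIST3H2A. Both comparisons share the d15 libraries.

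**Figure D4:**
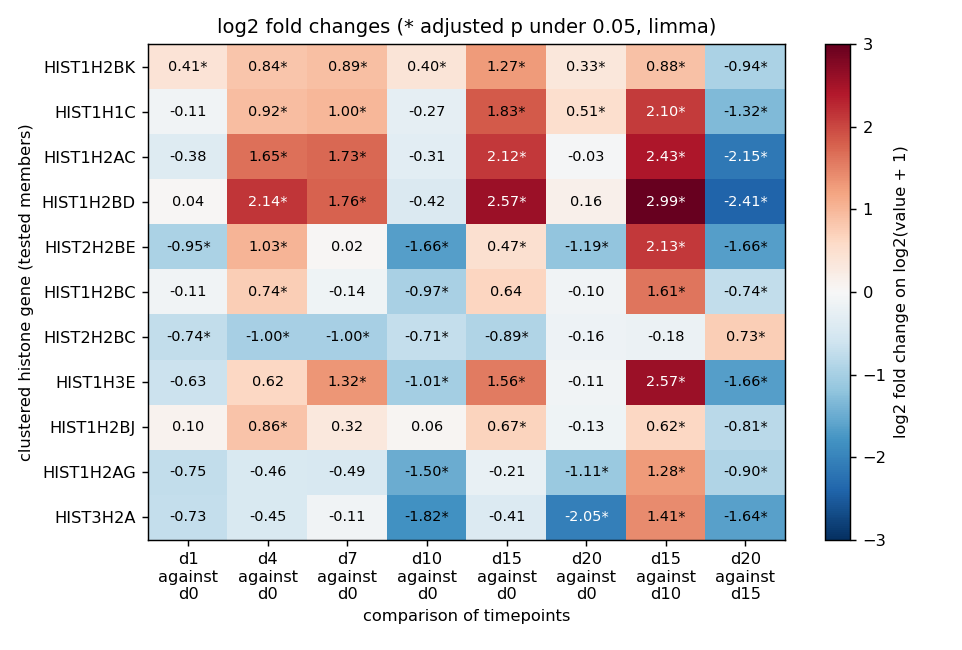
log2 fold changes on log2(value + 1) of the 11 tested clustered histone genes (rows, from the highest mean down) in 8 comparisons of timepoints (columns), in red where higher and blue where lower, with a star at a limma adjusted p under 0.05. The columns d4, d7 and d15 are mostly red and d10 mostly blue against d0, and HIST2H2BC runs against the others from d15 to d20 (0.73).

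Genes of DNA replication and histone supply were mostly lower at d4, d7 and d15. Of 45 genes of DNA replication and S phase entry, 44 were lower at d4, 43 at d7 and 44 at d15. The shares of all genes tested that were lower on those days were 35.3%, 32.6% and 37.3%. Median log2 fold changes of the 45 were -0.95, -0.67 and -2.07, beside 0.0067, 0.0039 and 0.015 for all genes tested. At d10, 18 of the 45 were higher and 9 lower with a median of 0.10, against 37.0% and 30.7% of all genes. With libraries rescaled to equal totals, 10 were higher and 21 lower, where 2864 and 6740 of all 13343 genes were. From d15 to d20, 44 rose, against 37.7% of all genes. Against d0, 3 were higher and 30 lower at d20, with a median of -0.21, beside 32.5% and 30.2% of all genes. RRM2, a subunit of ribonucleotide reductase, changed by -2.69 (standard error 0.072, adjusted p = 2.18e-18) at d15, and MCM2 by -2.59 (standard error 0.062, adjusted p = 3.77e-19) (limma, Benjamini-Hochberg). MCM2 to MCM7 summed to 24868, 25868 and 27200.5 (d0), 12162, 12656 and 12230.0 (d4), 27764, 27346 and 28017 (d10) and 5406, 5396 and 5427 (d15). At d20 they summed to 20208, 20593 and 20658.5, below every d0 library, and the libraries of d15 lay below all others. How far the share of cells in S phase set the histone read counts was not tested, and in bulk RNA fewer such cells and less RNA per cell cannot be told apart.

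Of 18 genes of histone mRNA synthesis and 3′ end processing, 13 were lower and 0 higher at d15, with a median of -0.37. The shares of all genes were 37.3% lower and 39.2% higher. SLBP, the protein that binds the stem-loop, had 1565, 1566 and 1667 normalized reads at d0 and 964, 997 and 962 (d15), a log2 change of -0.71 (standard error 0.05, adjusted p = 3.03e-11) in limma's test. NPAT, which activates histone gene transcription in S phase, changed by -0.29 (standard error 0.062, adjusted p = 0.00029). CCNE2, a cyclin of S phase entry, fell most at d15, with -2.0 (standard error 0.091, adjusted p = 1.67e-14). At d10 the list stood at 11 higher and 2 lower with a median of 0.13, against 37.0% and 30.7% of all genes. With libraries rescaled to equal totals it stood at 4 higher and 9 lower, against 2864 and 6740 of all 13343 genes.

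Of 19 histone chaperones and enzymes of histone deposition, 14 were lower at d4 and 15 at d15, with 2 higher on each day. Their medians were -0.45 and -0.57. Among all genes, 35.3% were lower and 36.9% higher at d4, and 37.3% and 39.2% at d15. ASF1B, a chaperone of new H3 and H4, had 1796, 1874 and 1899 (d0) and 476, 436 and 487 (d15), and its log2 fold change by limma was -1.99 (standard error 0.049, adjusted p = 6.48e-19). CHAF1A, a subunit of the replication-coupled assembly factor CAF-1, changed by -1.82 (standard error 0.09, adjusted p = 7.49e-14). HIRA, which deposits histone H3.3 outside replication, changed by -0.64 (standard error 0.076, adjusted p = 1.11e-07), and its partner UBN1 was higher, at 0.45 (standard error 0.033, adjusted p = 4.78e-11). CHAF1B and NASP stand in both this list and that of S phase, as SLBP, CCNE1 and CCNE2 do in those of S phase and histone mRNA.

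The listed variant histones, encoded outside the clusters, ranged widely in reads among the 11 tested, from a mean of 14.8 at d0 for H3F3C to 12445 for H2AFZ. Of the 12 listed, 11 were tested. At d15, 1 was higher and 6 lower, against 39.2% and 37.3% of all genes, with a median of -0.21. H3F3A was listed at 0 in every library, and whether its reads were left uncounted was not tested. H2AFZ had 12327, 12299 and 12709.8 normalized reads at d0 and 4694, 4742 and 4699.8 (d15), a log2 change of -1.40 (standard error 0.074, adjusted p = 2.46e-13) in limma's test. H2AFX, the variant that is phosphorylated at DNA breaks, changed by -1.34 (standard error 0.075, adjusted p = 5.81e-13), and CENPA, the H3 of centromeres, by -1.15 (standard error 0.10, adjusted p = 1.31e-09). H1F0, the linker histone H1.0 of non-dividing cells, was higher, at 0.21 (standard error 0.068, adjusted p = 0.00892), but was not called higher with the rescaling, under which 0 of the list were. H2AFJ was at -0.016 (adjusted p = 0.829) at d15 and -0.63 (adjusted p = 1.72e-08) at d10 in limma's test. H3F3B, which encodes H3.3, was at 0.045 (adjusted p = 0.395) at d15 and 0.54 (adjusted p = 1.99e-09) at d20.

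Within the clusters, 8 genes had been listed as known to give polyadenylated mRNAs (HIST1H1C, HIST1H2AC, HIST1H2BC, HIST1H2BD, HIST1H2BJ, HIST1H2BK, HIST1H4H and HIST2H2BE), and 7 of them were tested. All 7 were called higher at d4, HIST1H2BC only narrowly, while 36.9% of all genes were higher. With libraries rescaled to equal totals, 6 were. At d7, 4 were higher (all genes 34.6%), at d10 1 (37.0%) and at d15 6 (39.2%). The list was chosen with results of these data known, and 7 of its 8 genes are among the 9 members with the most reads, so the count is a description. The 4 tested members outside it were HIST2H2BC, HIST1H3E, HIST1H2AG and HIST3H2A, of which 0 were called higher at d4 and 1, HIST1H3E, at d15.

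**Figure D5:**
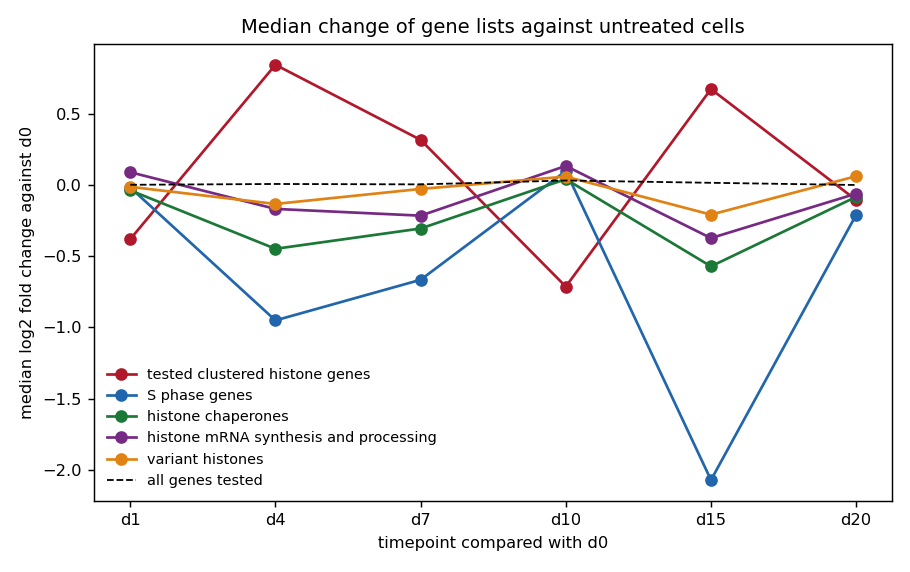
Median log2 fold change against d0 (vertical axis) by day for the 11 tested clustered histone genes, the 4 other gene lists and all genes tested (dashed). The clustered histone genes lie above the other lists at d4 (0.84) and d15 (0.67) and below them at d1 (-0.38) and d10 (-0.71), where the S phase genes are at -0.95, -2.07, -0.018 and 0.098.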

How the data were processed

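RNA sequencing of HMLE cells gave 21 libraries, 3 at each of 7 timepoints. The authors deposited 1 table of normalized read counts (a signal value per gene, reads divided by a size factor per library). The submitters' processing notes name STAR 2.7, Salmon 1.4 and hg19. Annotation, strand and poly(A) selection are not given in the sources used here. All values were whole reads within 0.1 read once the size factors were recovered (100.0% of values). The study describes biological triplicates, and replicate numbers here follow column order and only name a library.

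Genes with a mean of at least 10 were tested with limma 3.58.1 (R 4.3.3, trend, 14 residual degrees of freedom) on log2(value + 1), all timepoints in 1 fit, with Benjamini-Hochberg adjustment within each of 8 comparisons. Fold changes on this scale understate the change of low genes. Alternatives were another pseudocount (10), no filter, other scalings, pairwise fits, a log2 fold change of at least 1, leaving out each library, and edgeR 4.0.16 and DESeq2 1.42.0 on recovered reads. The code was tested on simulated data.

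Named genes were the 25 members with the highest means, the 3 largest changes in each direction and comparison, the 3 symbols on each side of the rule, the listed genes and the 5 of most similar pattern. HIST1H1B, HIST1H3B and HIST1H3F complete their classes and were named after their values were seen, as were the H2B neighbours under the rule and the 5 genes of most opposite pattern. One of the listed cell type markers is not reported here. The members and lists were chosen with earlier results of these data known. Stem-loops came from GENCODE release 29 transcripts and promoters from RefSeq, matched by symbol and, where a symbol stood under several genes, by position in GENCODE.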

Additional observations from a re-analysis of the deposited data

Results flagged for a closer look

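HIST2H2BE changed from d0 in opposite directions at d10 (log2 fold change -1.66) and d15 (0.47), and the direct comparison of d15 with d10 gave 2.13 (limma). The same gene went from 0.47 at d15 to -1.19 at d20 against d0, and d20 against d15 gave -1.66. HIST1H3E was at -1.01 at d10 and 1.56 at d15 against d0, with 2.57 for d15 against d10. The value of HIST2H2BE at d15 was not called with libraries rescaled to equal totals, and that of HIST1H3E at d10 was not called by edgeR or DESeq2. These comparisons share the libraries of d0 and of d15.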

How the results depend on the processing

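Over the counts and class sums, 207 of 238 values under an alternative kept their direction and size within the limits set. Another 26 moved and 5 were reversed. Over the single genes 1070 of 1144 kept their side of the threshold, with 63 calls lost, 11 gained and 0 reversed. A change of sign without a call in either setting counted as kept. An example is HIST2H2BE at d7, at 0.024, and at -0.17 with libraries rescaled to equal totals. With libraries rescaled to equal totals, 0 tested members were higher at d1, at d10 and at d20, and calls over all genes were 26.7%, 34.3%, 31.7%, 29.8%, 39.1% and 28.2% higher at d1, d4, d7, d10, d15 and d20, against 52.3%, 51.1%, 51.5%, 54.6%, 51.3% and 51.9% before. With a log2 fold change of at least 1, 0 were higher and 0 lower at d1, 3 higher at d4, 0 lower at d7, 0 higher at d10, 0 lower at d15, 0 higher at d20, and 0 higher and 6 lower from d15 to d20. With no filter, lower members of all 30 numbered 5 (d1), 2 (d4), 9 (d7), 19 (d10), 5 (d15) and 7 (d20), while 20.4%, 25.4%, 23.1%, 23.0%, 27.2% and 21.8% of all genes were lower. Of the 19 members added here, 11 had their highest mean at d0, and 1 library above 10 was enough for membership. The rule thus favours lower values against d0 in them, and these counts are a description. Quantile normalization gave 3 lower at d10 and 1 lower from d10 to d15, where 4730 and 5311 of all 13343 genes were lower.

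Leaving out 1 library gave 1 to 3 lower members at d1 (1 without the third d0 library, 3 without the second d0 or the third d1 library) and 1 to 2 higher at d20 (1 without the second d0 library). Lower members numbered 4 to 5 at d10 whichever library was left out (4 without the third d0 library), 2 to 3 at d20, and 7 to 10 from d15 to d20, with 7 without the third d20 library.

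The difference of the mean log2 class sum between d15 and d0 was 1.66 for H1, 1.31 for H2A, 1.20 for H2B, 0.25 for H3 and 0.14 for H4. Without the leading gene it was -1.76, -0.80, 1.07, -0.74 and -0.62. The members then left outside H2B were mostly too low for the test and needed only 1 library above 10, so these values are descriptions. With tested members alone it was 1.70 for H2A and 1.64 for H3, and H4 had none. Rescaled to equal totals it was 1.04 for H2B and -0.015 for H4. The cause was not tested. Low read counts limited the test to 11 of the 30 members. No paired analysis was possible because no column header gives a replicate number.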

Other observations

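Outside the clustered histone genes, the genes whose log2(value + 1) ran most like the sum of the 30 members over the 21 libraries were SOS1, PAQR7, C22orf23, FAM59A and CLASP1, each with Pearson r of 0.98. SOS1, an exchange factor for RAS, had mean normalized read counts of 1361 at d0, 1304 at d10 and 1969.8 at d15. CLASP1, a microtubule plus-end protein, had 2006 at d0, 1904 at d10 and 3430.0 at d15. The most opposite genes were EWSR1 (r of -0.99), RUVBL2, COQ2, NME1 and PDLIM2 (each -0.98). EWSR1, an RNA-binding protein, had 6008 at d0, 6097 at d10 and 3111 at d15. NME1, a nucleoside diphosphate kinase, had 1994 at d0, 2441 at d10 and 728 at d15. The points share libraries and timepoints, and these correlations are descriptions.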
